A study of Homo sapiens with 12 samples.

Results

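The MHC class II genes described here are 10 of the 58233 genes in the deposited count table, chosen by name: HLA-DRA, HLA-DRB1, HLA-DPA1, HLA-DPB1, HLA-DQA1, HLA-DMA, HLA-DMB, HLA-DOB, CD74 and CIITA. All 10 were found. The 12 libraries hold the poly(A)+ RNA of VAL and OCI-LY3, established human lines of diffuse large B-cell lymphoma, a cancer of mature B cells. Each line was read untreated (0 h) and after 3 h or 6 h in 300 nM AZ5576, with 2 libraries in each of the 6 groups. AZ5576 is a selective inhibitor of CDK9, the kinase that releases paused RNA polymerase II into elongation, and the study asked which pathways it deregulates. Each line is a single culture-adapted line and not a patient series. Untreated cells are the only controls named in the labels, although a vehicle is mentioned in the series text. Vehicle and time in culture cannot be told apart from the inhibitor.

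MHC class II molecules are pairs of an alpha and a beta chain that display peptides from endosomes to helper T cells, and B cells carry them at all times. The invariant chain CD74 fills the peptide groove of new molecules until HLA-DM exchanges its remnant for a peptide, a step that HLA-DO restrains. Most of these genes are switched on through CIITA, a coactivator that does not bind DNA itself but docks on RFX, CREB and NF-Y at the X and Y boxes of their promoters. CIITA is known to bind the cyclin T1 partner of CDK9, and loss of class II is a known route of immune escape in this lymphoma.

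The promoters of the 7 members that hold a pattern named below are shown, because X and Y boxes are where CIITA docks. HLA-DPA1, with 2 entries and no match, is not shown, although it rose at 6 h (0.97 in VAL, 0.95 in OCI-LY3). Of the 7 shown, HLA-DMB fell. Whether these patterns go with the changes after treatment was not tested. Sequences are from RefSeq (GRCh38.p14), 120 bases each from 135 to 16 bases before the listed start, 5′ to 3′ on the gene's strand. Capitals mark ATTGG or its reverse CCAAT (the Y box core, to which NF-Y binds), an X box pattern (CCNAG, a gap of any 2 bases, then ACNNATG) and CTGATGATG, the last overlapping the X box pattern in HLA-DMA and HLA-DMB.
HLA-DRB1 (chr6:32589864-32589983, minus strand): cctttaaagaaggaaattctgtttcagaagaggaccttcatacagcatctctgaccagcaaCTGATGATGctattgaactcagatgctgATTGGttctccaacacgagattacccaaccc
HLA-DPB1 (chr6:33075855-33075974, plus strand): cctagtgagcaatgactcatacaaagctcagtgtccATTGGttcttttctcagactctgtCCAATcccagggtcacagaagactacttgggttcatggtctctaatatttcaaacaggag
HLA-DQA1 (chr6:32637271-32637390, plus strand): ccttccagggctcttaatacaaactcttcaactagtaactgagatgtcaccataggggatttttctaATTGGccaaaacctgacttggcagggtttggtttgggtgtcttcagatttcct
HLA-DMA (chr6:32953113-32953232, minus strand): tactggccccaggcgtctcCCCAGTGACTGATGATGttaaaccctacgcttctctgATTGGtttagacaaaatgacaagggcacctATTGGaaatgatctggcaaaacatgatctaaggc
HLA-DMB (chr6:32941044-32941163, minus strand): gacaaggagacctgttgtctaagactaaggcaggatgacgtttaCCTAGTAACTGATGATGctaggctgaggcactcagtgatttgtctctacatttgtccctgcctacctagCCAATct
HLA-DOB (chr6:32817018-32817137, minus strand): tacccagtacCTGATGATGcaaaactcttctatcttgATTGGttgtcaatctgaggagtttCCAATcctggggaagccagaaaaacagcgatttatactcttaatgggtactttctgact
CD74 (chr5:150412926-150413045, minus strand): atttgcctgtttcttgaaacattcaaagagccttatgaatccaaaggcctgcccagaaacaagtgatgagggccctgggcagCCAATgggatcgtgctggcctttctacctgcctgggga

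A table entry was found for 8 of the 10 members, and not for HLA-DRA and CIITA. Both strands of all 300 bases of an entry were searched. The Y box core lay in 7 of these 8 members and in 34.6% of 35116 promoters. The X box pattern lay in 2 of the 8, HLA-DMA and HLA-DMB, against 0.154% of all promoters. CTGATGATG lay in 4 of the 8, HLA-DRB1, HLA-DMA, HLA-DMB and HLA-DOB, against 0.271%. These patterns were written down after the sequences had been read, and a match is a description of letters, not a shown binding site.

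Library depth ran from 23175082 to 39715536 counts, and levels are CPM, counts scaled to library depth and by TMM. The 7 B-cell markers checked were all expressed, summing to 2760 to 3150 CPM in VAL and 3140 to 3810 CPM in OCI-LY3. T-cell and NK markers summed to 2.55 to 3.7 CPM in VAL and 6.24 to 7.81 CPM in OCI-LY3. The T-cell gene CD3D peaked at 0.0495 CPM. Most of the untreated sums came from TRAC on the same list, at means of 2.46 CPM in VAL and 5.63 CPM in OCI-LY3. Myeloid and dendritic markers summed to 2.65 to 5 CPM and 5.53 to 12.8 CPM. CD163, CLEC10A and FCGR3A stood at 0 in every library. ITGAM made up most of the untreated sum of OCI-LY3, with a mean of 4.90 CPM. CD14 rose from 0.122 and 0.158 CPM to 4.75 and 4.13 CPM in OCI-LY3 at 6 h, and from a mean of 0.196 CPM to 2.13 CPM in VAL. Epithelial and stromal markers summed to 14.4 to 22.6 CPM in VAL and 29.8 to 106 CPM in OCI-LY3, where COL1A1 alone, a collagen gene, went from 33.8 and 28.8 CPM untreated to 104.3 and 97.0 CPM at 6 h. In untreated VAL most of this sum came from PECAM1 on the same list, with a mean of 14.6 CPM. Whether other cells contribute to the class II levels was not tested. All VAL libraries shared a sequencing lane and all OCI-LY3 libraries shared another, so line and lane cannot be told apart.

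A few libraries stood apart. The 2 treated VAL libraries of a time point differed far beyond counting noise: chi-square over its degrees of freedom was 63.7 for the 3 h pair and 51.9 for the 6 h pair, against 1.66 for the untreated pair. The OCI-LY3 pairs gave 2.31, 19.8 and 2.95 in order of time. VAL libraries numbered 1 are marked in the labels as resubmitted. At 6 h the VAL library numbered 1 was lower than number 2 for genes under 10 kb long, by a median of -0.32 on the log2 scale over 1444 genes. It was higher by 0.22 for genes over 50 kb, a class of 3251 genes that holds CIITA. OCI-LY3 6 h replicate 1 carried traces of genes that VAL expresses strongly and untreated OCI-LY3 nearly lacks. The 6 h changes of HLA-DRA and HLA-DRB1 in OCI-LY3 are given with and without this library, and those of the other members mostly with it alone. CPNE3, a gene of this kind, was also raised in replicate 2, at 0.446% of untreated VAL. Leaving out replicate 1 is therefore not a full check.

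The first comparison asked how far the untreated lines differ. OCI-LY3 held far less mRNA of nearly every class II gene than VAL, while CIITA, higher in both OCI-LY3 libraries, did not pass. The shortfall was steepest for the DR genes, HLA-DRA and HLA-DRB1, and smallest for CD74. HLA-DOB, a subunit of the HLA-DM inhibitor, went the other way. Of the 10 members 8 were lower in OCI-LY3, 1 was higher and 1 did not pass, against 26.5% lower and 29.8% higher among the 16374 genes tested. The median difference was -3.80 on the log2 scale for the members and 0.0328 for all tested genes. All 10 passed the filter on low counts.

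HLA-DRA, the alpha chain shared by all DR beta chains, stood at 935.2 and 918.3 CPM in untreated VAL. In untreated OCI-LY3 it stood at 1.83 and 2.19 CPM, from 75 and 97 counts. The lines did not overlap. Separation of 2 libraries from 2 others, here and below, can easily arise by chance, and its share among all tested genes was not counted. The difference was -8.84 ± 0.296 on the log2 scale (SE, n = 2 per group), 459-fold lower in OCI-LY3, adjusted p = 3.02e-09 by edgeR's quasi-likelihood test. Its partner HLA-DRB1, the main DR beta chain, stood at 182.3 and 183.3 CPM against 1.12 and 1.35 CPM, a difference of -7.20 ± 0.198 (adjusted p = 1.19e-09). In bulk RNA fewer cells that express a gene and less RNA per cell cannot be told apart.

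The DP and DQ chains were less depleted. HLA-DPA1, the DP alpha chain, stood at 248.1 and 246.9 CPM in VAL against 9.49 and 10.2 CPM, a difference of -4.65 ± 0.129. Its beta partner HLA-DPB1 stood at 92.7 and 88.5 CPM against 2.90 and 3.25 CPM, a difference of -4.88 ± 0.169. HLA-DQA1, the DQ alpha chain, stood at 95.7 and 93.9 CPM against 7.20 and 6.80 CPM, a difference of -3.76 ± 0.139. No OCI-LY3 library reached a VAL library for any of these chains, and the adjusted p was at most 4.88e-09 for the 3 genes.

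The peptide exchange genes split. HLA-DMA, the alpha chain of HLA-DM, stood at 150.7 and 151.3 CPM in VAL against 9.958 and 11.02 CPM (-3.85 ± 0.177, adjusted p = 1.89e-08). HLA-DMB, its beta chain, stood at 64.6 and 62.8 CPM against 9.35 and 8.70 CPM (-2.82 ± 0.21, adjusted p = 7.3e-07). HLA-DOB stood at 3.05 and 2.60 CPM in VAL and at 9.32 and 8.49 CPM in OCI-LY3. It was thus 3.15-fold higher in OCI-LY3 (1.66 ± 0.252, adjusted p = 0.000193), above VAL in both libraries.

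CD74 remained abundant in both lines, at 2708 and 2616 CPM in VAL and 916.6 and 940.0 CPM in OCI-LY3. It was 2.87-fold lower in OCI-LY3 (-1.52 ± 0.113, adjusted p = 7.11e-07). The ratio of CD74 to the sum of the 5 chains was 1.74 and 1.71 in VAL and 40.6 and 39.5 in OCI-LY3. CIITA stood at 60.4 and 61.5 CPM in VAL and at 99.1 and 91.4 CPM in OCI-LY3. Both OCI-LY3 libraries lay above both VAL libraries, but the difference of 0.65 ± 0.292 did not pass (adjusted p = 0.0824, 95% interval 0.0002 to 1.29), and it passed with no low-count filter (adjusted p = 0.0015), with limma-voom (adjusted p = 3.11e-06) and without any 1 treated VAL library (adjusted p = 0.00559 to 0.0444). The labels and counts do not say which transcript form of CIITA was read.

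**Figure D1:**
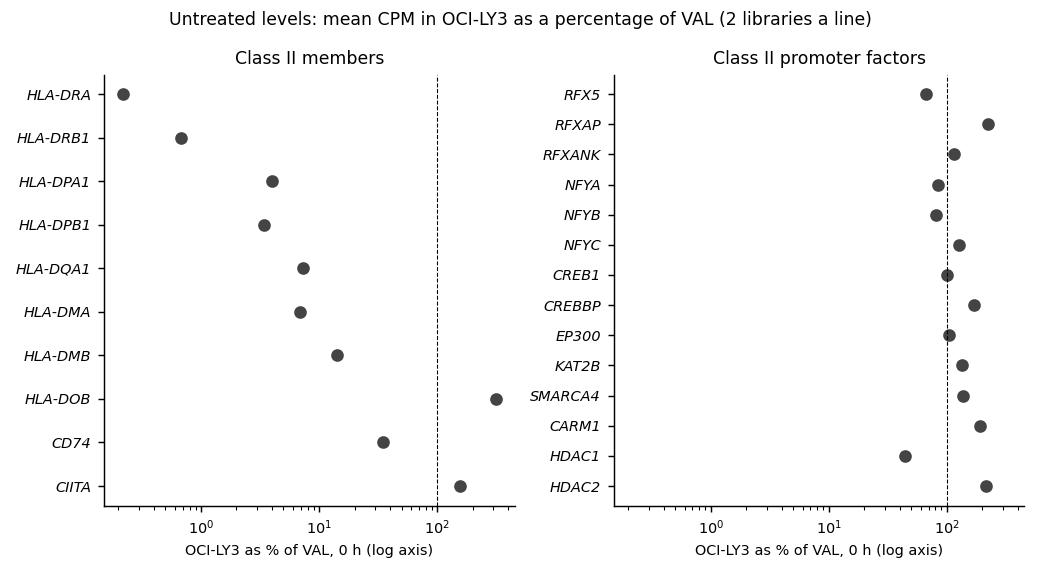
Mean CPM of untreated OCI-LY3 as a percentage of untreated VAL (log axis, 2 libraries a line; the dashed line marks equality) for the class II members and factors of the class II promoter. HLA-DRA sits at 0.217%, HLA-DRB1 at 0.678% and CD74 at 34.9%, while CIITA lies at 156.4% and the RFX subunits between 67.1% and 225.4%.

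Other genes of the pathway were read from lists. Of 7 other class II loci 5 were tested and all 5 were lower in OCI-LY3, among them HLA-DQB1, the DQ beta chain (-5.28 ± 0.204), and HLA-DOA, the partner of HLA-DOB (-0.86 ± 0.101). Of 14 factors of the class II promoter 5 were higher, 3 were lower and 6 did not pass. The RFX subunits were present in both lines: RFX5 differed by -0.58 ± 0.0958 and RFXAP by 1.17 ± 0.198, while RFXANK did not pass (0.19 ± 0.15, adjusted p = 0.303). Of 16 class I presentation genes 6 were higher in OCI-LY3, 1 was lower and 9 did not pass. The class I heavy chain HLA-B (0.00 ± 0.153) and the light chain B2M (0.23 ± 0.135) did not pass. Of 16 regulators of CIITA 6 were higher and 6 lower, with IRF4, a B-cell and plasma-cell factor, at -3.31 ± 0.188.

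Levels can be ordered only per kilobase of the principal transcript, and CIITA is left out because its annotated forms differ widely in length. In untreated VAL CD74 led with 2667 to 2760 CPM per kb, followed by HLA-DRA with 717.4 to 730.6. HLA-DRB1 (148.3 to 149.1), HLA-DPA1 (144.9 to 145.6) and HLA-DMA (134.2 to 134.7) came next, each above the following gene in both libraries. HLA-DQA1 and HLA-DPB1 overlapped, at 59.0 to 60.1 and 56.7 to 59.4, above HLA-DMB (44.9 to 46.2), and HLA-DOB was last (1.82 to 2.13). In untreated OCI-LY3 CD74 again led (934.4 to 958.2 CPM per kb), but HLA-DMA was second with 8.87 to 9.81. HLA-DMB (6.22 to 6.69) and HLA-DOB (5.95 to 6.53) overlapped, as did HLA-DOB and HLA-DPA1 (5.57 to 5.99). HLA-DQA1 (4.27 to 4.53), HLA-DPB1 (1.86 to 2.08), HLA-DRA (1.43 to 1.71) and HLA-DRB1 (0.914 to 1.10) followed without overlap. The DR genes thus followed CD74 in VAL and came last in OCI-LY3.

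The next comparison asked what CDK9 inhibition did in VAL. Relative to other mRNAs, the 5 classical chains and CD74 rose within 3 h, HLA-DMB fell, and CIITA was lower in both treated libraries; the sign of these 6 rises turned when counts were scaled to mitochondrially encoded or ribosomal protein mRNAs, and that of HLA-DQA1 also with library size alone. Of the 6, HLA-DQA1 alone passed as lower at 3 h with ribosomal protein scaling (-0.51, adjusted p = 0.00406), while CD74 stood at -0.0614 (adjusted p = 0.57). At 3 h 6 members were higher, 1 was lower and 3 did not pass, against 29.6% higher and 25.1% lower among all tested genes. At 6 h 6 were higher, 2 were lower and 2 did not pass, against 34.0% and 32.2%. The median change was 0.46 at 3 h and 0.60 at 6 h for the members, and 0.17 and 0.0984 for all tested genes.

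HLA-DRA in VAL stood at 1269 and 1647 CPM at 3 h and at 1685 and 2227 CPM at 6 h, all above the untreated pair. Its change was 0.65 ± 0.203 at 3 h (adjusted p = 0.0183) and 1.08 ± 0.204 at 6 h (adjusted p = 0.00077). Its counts went from 39288 and 36029 at 0 h to 44521 and 46809 at 6 h, in libraries whose totals went from 34134616 and 31561576 to 28303815 and 25321061. HLA-DRB1 stood at 246.5 and 296.5 CPM at 3 h and at 297.3 and 361.4 CPM at 6 h (0.57 ± 0.141 and 0.85 ± 0.142). Both DR genes were higher in replicate 2 than in replicate 1 at both times. Here and below, leaving out a library of 1 line moves values of the other line through the refitted scaling. Their p can also move through the spread, which all 6 groups share. Without OCI-LY3 3 h replicate 2 the VAL 3 h changes were 0.52 for HLA-DRA, 0.23 for HLA-DQA1 and -0.84 for CIITA. Each was lower than with all libraries. The 3 h call of HLA-DRA was lost without any one of VAL 0 h replicate 1 or 2, VAL 3 h replicate 2, OCI-LY3 0 h replicate 1 or 2 and OCI-LY3 3 h replicate 2 (0.45 to 0.53, adjusted p = 0.0843 to 0.191), and that of HLA-DRB1 without either untreated VAL library (0.43 and 0.45, adjusted p = 0.129 and 0.118).

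HLA-DPA1 stood at 369.0 and 422.4 CPM at 3 h and at 446.3 and 525.9 CPM at 6 h, with changes of 0.68 ± 0.109 and 0.97 ± 0.11. HLA-DPB1 stood at 135.5 and 165.0 CPM and then at 177.0 and 220.6 CPM, with changes of 0.73 ± 0.138 and 1.13 ± 0.139. HLA-DQA1 moved least of the chains, to 111.6 and 131.2 CPM at 3 h and 110.0 and 130.6 CPM at 6 h (0.36 ± 0.121 and 0.34 ± 0.122, adjusted p = 0.0279 and 0.0272). No treated library of these chains overlapped the untreated pair, a separation whose share among all tested genes was not counted. The calls of HLA-DQA1 were lost without any untreated library of either line, without OCI-LY3 3 h replicate 2, or without VAL replicate 2 of the time tested, with values of 0.21 to 0.24 at 3 h (adjusted p = 0.135 to 0.368) and 0.21 to 0.31 at 6 h (adjusted p = 0.0724 to 0.199). CD74 rose to 4355 and 4917 CPM at 3 h and 5564 and 6480 CPM at 6 h (0.80 ± 0.111 and 1.18 ± 0.112, adjusted p = 0.000139 and 4.56e-06).

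HLA-DMB fell relative to its partner. It fell to 30.7 and 44.8 CPM at 3 h and to 25.2 and 34.9 CPM at 6 h, all below the untreated pair (-0.75 ± 0.196 and -1.08 ± 0.198, adjusted p = 0.0074 and 0.000594). Its fall held its sign under every scaling tried. HLA-DMA, at 141.7 and 186.5 CPM and then 140.8 and 189.0 CPM, overlapped its untreated pair and did not pass (0.12 ± 0.155 and 0.13 ± 0.156). Its 6 h change was -0.37 with library size alone, -1.25 with ribosomal protein scaling and -2.04 with mitochondrial scaling. The ratio of HLA-DMA to HLA-DMB, which no scaling between libraries can alter, went from 2.33 and 2.41 to 4.61 and 4.16 and then to 5.58 and 5.41. HLA-DOB stayed low, at 2.52 and 4.26 CPM and then 2.65 and 3.85 CPM, and did not pass (0.25 ± 0.271 and 0.19 ± 0.276).

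CIITA stood at 45.5 and 28.6 CPM at 3 h and at 45.6 and 20.2 CPM at 6 h, below the untreated pair in all 4 treated libraries. The change was -0.72 ± 0.296 at 3 h, which did not pass (adjusted p = 0.0611), and -0.88 ± 0.298 at 6 h (adjusted p = 0.0223). Its size rested on which treated library was read. Without replicate 2 at 6 h the change was -0.42 (adjusted p = 0.101), and without replicate 1 at 6 h it was -1.59 (adjusted p = 0.000121). At 3 h the values were -0.42 (adjusted p = 0.284) without replicate 2 of that time and -1.09 (adjusted p = 0.0186) without replicate 1.

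From 3 h to 6 h in VAL CD74 rose further (0.38 ± 0.111, adjusted p = 0.0314) and the other 9 members did not pass, against 7.54% higher and 15.3% lower among all tested genes. This single call was lost without any one of the 4 untreated libraries, VAL 3 h replicate 1, VAL 6 h replicate 2 and the 2 OCI-LY3 6 h libraries, with values of 0.26 to 0.46 and adjusted p = 0.0567 to 0.121. It turned to -0.40 and -0.13 with mitochondrial and ribosomal protein scaling. With the replicate number as a block HLA-DPA1 (0.30, adjusted p = 0.0468) and HLA-DPB1 (0.40, adjusted p = 0.0266) also passed.

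**Figure D2:**
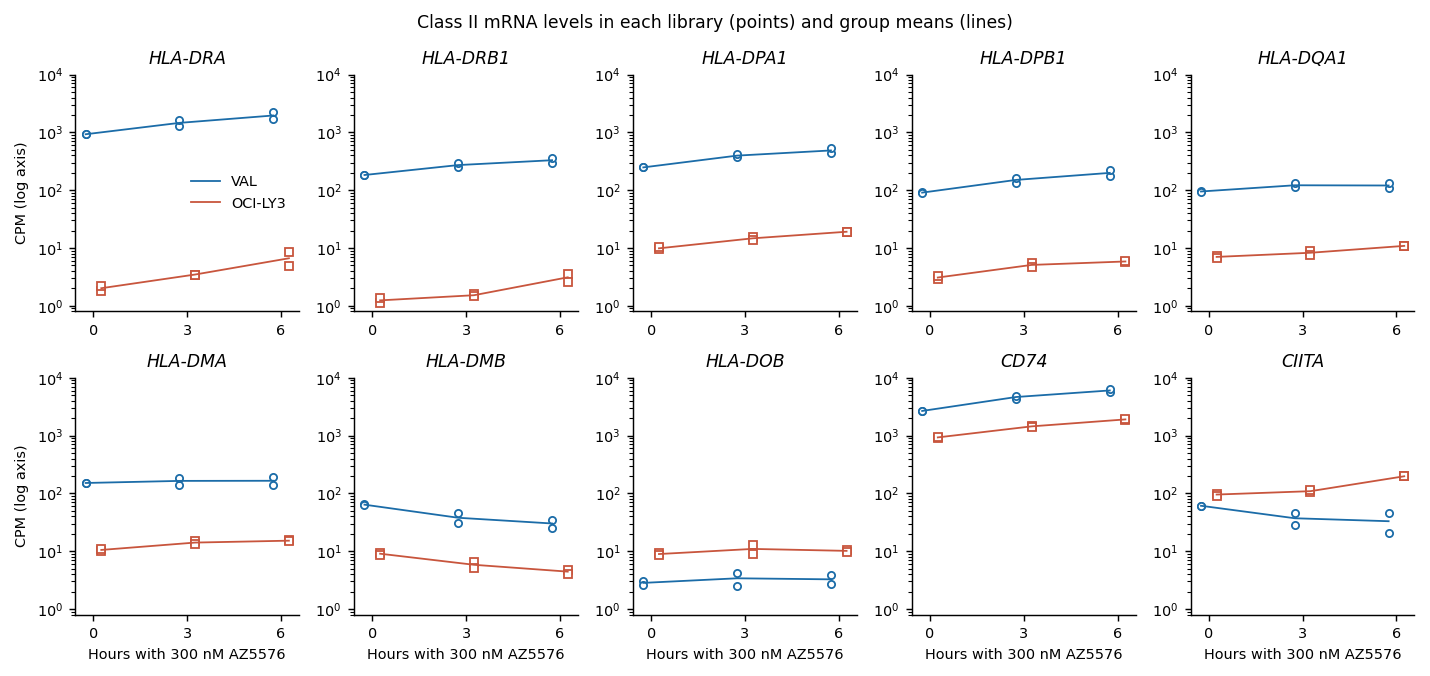
CPM of the 10 members on a log axis against hours in 300 nM AZ5576, with a point for each library and lines through the means of 2 libraries, VAL as circles and OCI-LY3 as squares. CD74 and the 5 chains lie above their untreated levels in both lines under the default scaling (a direction that most of them lose with mitochondrial or ribosomal protein scaling), HLA-DMB falls in both, and CIITA parts, from 60.4 and 61.5 to 45.6 and 20.2 CPM in VAL and from 99.1 and 91.4 to 197.2 and 197.5 CPM in OCI-LY3.

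The same comparison in OCI-LY3 asked whether a line with little class II responds alike. The low levels rose from their own floor: by 6 h all 5 chains, HLA-DMA, CD74 and CIITA were higher and HLA-DMB was lower, relative to other mRNAs. With ribosomal protein scaling HLA-DRA (0.58) and HLA-DRB1 (0.19) kept a positive sign and the other 6 turned, and with mitochondrial scaling HLA-DRA alone did (0.15). At 3 h 4 members were higher, 1 was lower and 5 did not pass, against 17.8% higher and 24.3% lower among all tested genes. At 6 h 8 were higher, 1 was lower and 1 did not pass, against 28.1% and 33.4%. The median change was 0.36 and 0.94 for the members, and 0 and -0.00852 for all tested genes.

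HLA-DRA in OCI-LY3 stood at 3.47 CPM in both 3 h libraries and at 8.41 and 4.84 CPM at 6 h, from 170 and 110 counts. Its change was 0.78 ± 0.277 at 3 h (adjusted p = 0.0415, lost without any of the 6 libraries left out in turn from 0 h or 3 h of this line or from 0 h of VAL, with adjusted p = 0.0505 to 0.176) and 1.71 ± 0.267 at 6 h (adjusted p = 0.000215). Without replicate 1 at 6 h the latter was 1.26 (adjusted p = 0.00272). HLA-DRB1 stood at 1.57 and 1.47 CPM at 3 h (0.29 ± 0.228, adjusted p = 0.335) and at 3.61 and 2.59 CPM at 6 h (1.31 ± 0.213, adjusted p = 0.000281). Without replicate 1 at 6 h its change was 1.06 (adjusted p = 0.00475). All treated libraries lay above the untreated ones for both genes.

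The doubt about that library comes from genes other than the members. Of 722 genes of at least 200 CPM in untreated VAL, 4 stood under 1% of that level in untreated OCI-LY3: HLA-DRA, GSTP1, CPNE3 and HSPB1. In OCI-LY3 6 h replicate 1 GSTP1 stood at 0.616% of untreated VAL, CPNE3 at 1.17% and HSPB1 at 0.478%. In replicate 2 they stood at 0.0412%, 0.446% and 0, and in the other 4 libraries at 0.0762% or less. HLA-DRA stood at 0.908% and 0.522% in these replicates and HLA-DRB1 at 1.98% and 1.42%. The part of this trace in the DR values was not tested.

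**Figure D3:**
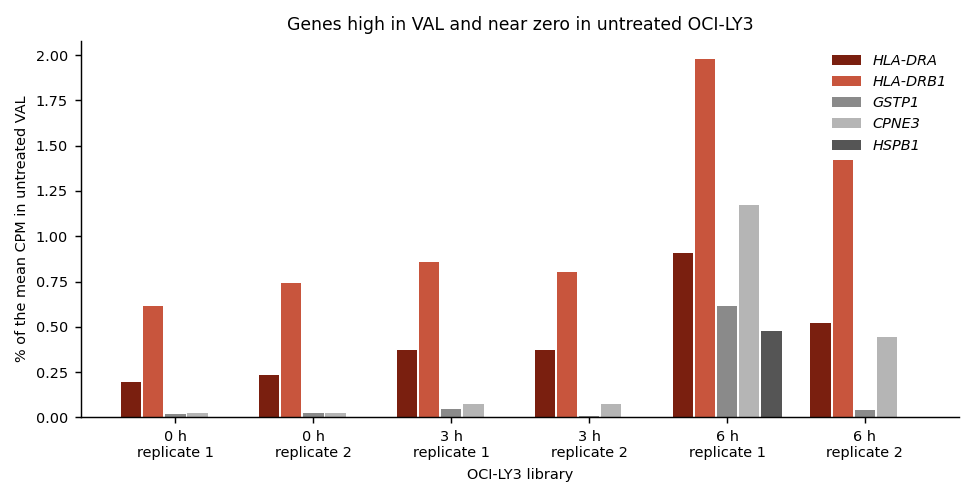
Level in each OCI-LY3 library as a percentage of the mean CPM of untreated VAL (linear axis from 0) for HLA-DRA, HLA-DRB1 and the 3 other genes named in the text. At 6 h replicate 1 exceeds replicate 2 for all 5 genes, and HSPB1 appears in it alone, at 0.478%.

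HLA-DPA1 in OCI-LY3 stood at 15.4 and 14.0 CPM at 3 h and at 19.1 CPM in both libraries at 6 h (0.57 ± 0.119 and 0.95 ± 0.119, adjusted p = 0.00279 and 4.22e-05). HLA-DPB1 stood at 5.55 and 4.63 CPM and then at 5.64 and 6.02 CPM (0.72 ± 0.168 and 0.92 ± 0.17). HLA-DQA1 stood at 8.90 and 7.61 CPM and then at 10.9 and 10.8 CPM, and passed at 6 h (0.63 ± 0.136, adjusted p = 0.00186) but not at 3 h (0.24 ± 0.135, adjusted p = 0.185). In each of these genes the treated libraries lay above the untreated pair. The 3 h call of HLA-DPB1 was lost without OCI-LY3 0 h replicate 1 or 3 h replicate 1 (adjusted p = 0.0513 to 0.0589). CD74 stood at 1480 and 1400 CPM and then at 1858 and 1942 CPM (0.63 ± 0.111 and 1.03 ± 0.112, adjusted p = 0.000976 and 1.46e-05).

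HLA-DMB fell in OCI-LY3 too, to 6.50 and 5.12 CPM at 3 h and to 4.75 and 4.09 CPM at 6 h, below the untreated pair throughout. The change was -0.64 ± 0.215 at 3 h (adjusted p = 0.0344) and -1.03 ± 0.226 at 6 h (adjusted p = 0.00213). The 3 h call was lost without any of the libraries of this line at 0 h or 3 h, or of VAL at 0 h, with adjusted p = 0.0535 to 0.269. HLA-DMA stood at 14.9 and 13.3 CPM and then at 15.34 and 14.99 CPM, above the untreated pair, and passed at 6 h (0.53 ± 0.169, adjusted p = 0.0178) but not at 3 h (0.42 ± 0.168, adjusted p = 0.0641). The 6 h call was lost without OCI-LY3 0 h replicate 1 or either 6 h library (0.51 to 0.55, adjusted p = 0.0617 to 0.0888). The ratio of HLA-DMA to HLA-DMB went from 1.07 and 1.27 to 2.29 and 2.60 and then to 3.23 and 3.67. HLA-DOB, at 12.8 and 9.08 CPM and then 10.5 and 9.67 CPM, did not pass (0.29 ± 0.236 and 0.18 ± 0.239).

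CIITA in OCI-LY3 stood at 104.4 and 113.5 CPM at 3 h, which did not pass (0.19 ± 0.291, adjusted p = 0.636), and at 197.2 and 197.5 CPM at 6 h. The 6 h change was 1.05 ± 0.293 (adjusted p = 0.00905), a 2.07-fold rise with both libraries far above all others. It held without each library in turn (1.05 to 1.17, adjusted p = 0.0002 to 0.0404). It did not pass with library size alone (0.68, adjusted p = 0.106), and its sign turned with mitochondrial (-0.51) and ribosomal protein scaling (-0.0823).

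From 3 h to 6 h in OCI-LY3 5 members rose, 0 fell and 5 did not pass, against 12% higher and 16.3% lower among all tested genes. The risers were HLA-DRA (0.92 ± 0.263), HLA-DRB1 (1.02 ± 0.22), HLA-DPA1 (0.38 ± 0.119), CD74 (0.40 ± 0.111) and CIITA (0.86 ± 0.293, adjusted p = 0.0496). Of these HLA-DPA1 and CD74 turned sign with mitochondrial and ribosomal protein scaling. Without replicate 1 at 6 h, or without replicate 2 at 3 h, none of the 5 passed by edgeR, and HLA-DRA stood at 0.48 (adjusted p = 0.246) in the former. Without any 1 of the 4 untreated libraries, OCI-LY3 3 h replicate 1 or OCI-LY3 6 h replicate 2, 1 or 2 members were called.

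**Figure D4:**
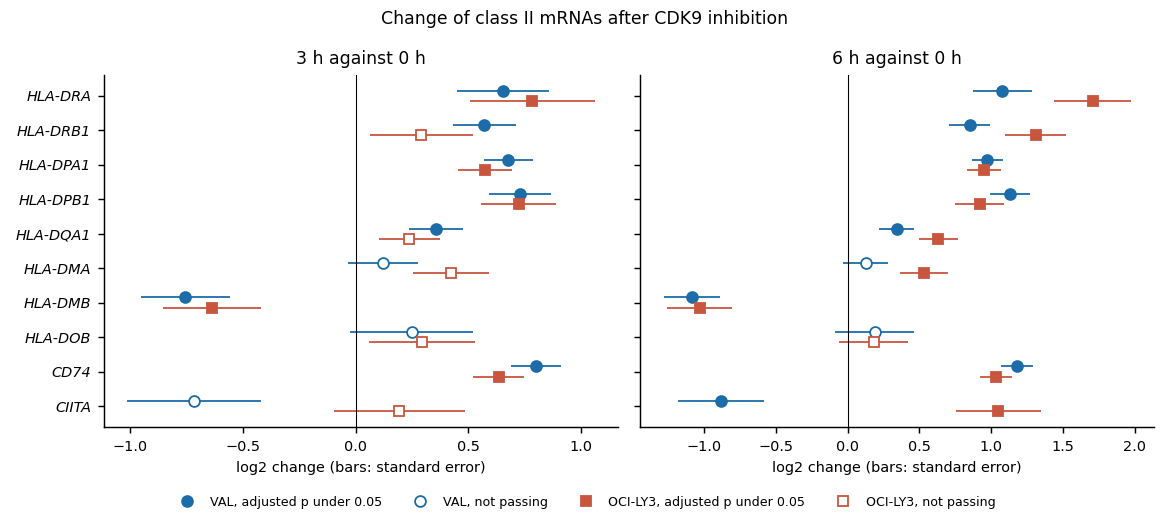
Log2 change with its standard error for each member at 3 h and 6 h against 0 h, in VAL (circles) and OCI-LY3 (squares), filled where the adjusted p was under 0.05. At 6 h 9 of 10 genes shift to the same side in both lines and CIITA to opposite sides (-0.88 and 1.05). Of these 9, HLA-DOB passed in neither line and HLA-DMA did not pass in VAL. The rightward 6 h shifts are relative to other mRNAs and, but for the DR genes of OCI-LY3, turn left with ribosomal protein scaling.

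Whether the lines differ in their response was tested directly. At 3 h 0 of the 10 members differed by edgeR, against 2.73% higher and 3.3% lower among all tested genes. CIITA came nearest, with a difference of 0.91 ± 0.415 (adjusted p = 0.204, 95% interval -0.00686 to 1.82). At an unadjusted p under 0.05 the count by edgeR was also 0, and by DESeq2's Wald test it was 0 and by limma-voom 1 after adjustment. At 6 h CIITA differed, by 1.93 ± 0.418 (adjusted p = 0.00735, 95% interval 1.01 to 2.86), against 12.3% higher and 14.4% lower among all tested genes. The difference kept its sign and passed in all alternatives in which it was computed, from 1.47 to 2.64 with adjusted p of 0.0454 or less, mitochondrial (2.61) and ribosomal protein scaling (2.08) among them.

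For the other 9 members the 6 h difference between lines did not pass, which does not show that they respond alike. The interval was -0.49 to 0.20 for CD74 and -0.38 to 0.34 for HLA-DPA1. It was -0.70 to 0.27 for HLA-DPB1 and -0.11 to 0.69 for HLA-DQA1. For HLA-DRA, at 0.63 ± 0.334, it ran from -0.11 to 1.37. The difference of HLA-DRA was 0.185 (adjusted p = 0.733) without OCI-LY3 6 h replicate 1 and 0.98 (adjusted p = 0.0493) without replicate 2. The interval of HLA-DRB1 ran from -0.0983 to 1.02, and its difference of 0.46 became 0.21 (adjusted p = 0.648) without OCI-LY3 6 h replicate 1. For HLA-DMB it ran from -0.61 to 0.72. The intervals of HLA-DMA (-0.10 to 0.91) and HLA-DOB (-0.80 to 0.78) also held 0.

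The rest of the pathway did not move as a block. Its list counts, here and in the following paragraphs, stand beside these shares of every tested gene. Higher calls in VAL made up 29.6% (3 h) and 34.0% (6 h), lower calls 25.1% and 32.2%. For OCI-LY3 the higher calls made up 17.8% and 28.1%, the lower calls 24.3% and 33.4%. Whether a list departs from these shares was not tested. Of the 5 other class II loci tested, 4 rose in VAL at each time, with HLA-DQB1 at 0.74 ± 0.164 and HLA-DOA at 0.52 ± 0.0996 at 6 h. In OCI-LY3 0 passed at 3 h and 2 rose at 6 h, HLA-DQA2 (1.25 ± 0.367) and HLA-DRB5 (1.27 ± 0.444). Both lay near the floor: mean CPM at 0 h and 6 h was 0.352 and 0.844 for HLA-DQA2 and 0.153 and 0.374 for HLA-DRB5. The part of the trace of VAL genes in these values was not tested. Of 13 tested genes of antigen processing, 5 rose and 1 fell in VAL at 3 h, 3 rose and 3 fell at 6 h, and in OCI-LY3 6 rose and 1 fell at 3 h and 8 rose and 2 fell at 6 h. CTSB, a lysosomal protease, went from 6.998 and 7.187 CPM to 37.4 and 46.5 CPM in VAL (2.56 ± 0.129) and from 5.91 and 5.94 to 62.4 and 59.1 CPM in OCI-LY3 (3.36 ± 0.133). IFI30, the reductase that unfolds antigens in endosomes, fell at 6 h in VAL (-2.66 ± 0.421) and OCI-LY3 (-0.85 ± 0.272). Its levels were low, with means of 1.36 CPM at 0 h and 0.223 CPM at 6 h in VAL. In OCI-LY3 the means were 3.49, 1.08 and 1.92 CPM in order of time.

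Among the 14 promoter factors 5 rose and 7 fell in VAL at 3 h and again at 6 h, and in OCI-LY3 3 rose and 6 fell at 3 h and 3 rose and 7 fell at 6 h. NFYA, the DNA-contacting subunit of NF-Y, went from 60.0 and 56.7 CPM to 13.6 and 9.94 CPM in VAL (-2.31 ± 0.151) and from 50.7 and 47.9 CPM to 5.29 and 4.97 CPM in OCI-LY3 (-3.26 ± 0.163). NFYB fell with it (-1.23 ± 0.126 and -1.35 ± 0.128), as did the acetyltransferase EP300 (-1.50 ± 0.229 and -2.46 ± 0.239). RFX5, the largest RFX subunit, rose slightly in VAL (0.28 ± 0.0955) and did not pass in OCI-LY3 (-0.22 ± 0.0962). HDAC1, a deacetylase, rose in both lines relative to other mRNAs (1.19 ± 0.0941 and 0.99 ± 0.094). Changes of these context genes are given with the default scaling only.

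Among 16 regulators of CIITA 5 rose and 7 fell in VAL at both times. In OCI-LY3 0 rose and 8 fell at 3 h, and 3 rose and 7 fell at 6 h. IRF1, an interferon-responsive activator of CIITA, fell from 21.5 and 20.4 CPM to 1.47 and 1.24 CPM at 3 h in VAL (-3.94 ± 0.172) and from 24.6 and 23.1 CPM to 1.42 and 1.68 CPM in OCI-LY3 (-3.94 ± 0.169). The signalling inhibitor SOCS1 fell in the same way (-4.83 ± 0.208 and -3.43 ± 0.16). IRF8, a factor of the B-cell lineage, passed with a rise at 6 h in OCI-LY3, to 338.0 and 329.0 CPM from 161.4 and 168.5 CPM (1.01 ± 0.0982), and did not pass in VAL (0.08 ± 0.0972). The difference between lines was 0.93 ± 0.138 (adjusted p = 0.00108).

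Class I presentation genes gave a reference within the same libraries. Of 16, 10 rose and 2 fell in VAL at 3 h, 8 rose and 4 fell at 6 h, and in OCI-LY3 11 rose and 1 fell at each time. B2M rose by 1.17 ± 0.136 and 1.19 ± 0.136 at 6 h, beside 1.18 ± 0.112 and 1.03 ± 0.112 for CD74. CALR, a chaperone of class I assembly, fell in VAL (-2.58 ± 0.221) and did not pass in OCI-LY3 (-0.14 ± 0.208).

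The direction of the rises depended on the scaling, and the labels name no spike-in. The 13 mitochondrially encoded mRNAs, made by another polymerase, shifted by a median of 2.20 at 6 h in VAL and 1.60 in OCI-LY3, and the 77 ribosomal protein mRNAs by 1.36 and 1.15. With counts scaled to the former the median change of all tested genes at 6 h moved from 0.0984 to -2.06 in VAL and from -0.00852 to -1.55 in OCI-LY3. HLA-DRA then stood at -1.09 in VAL, above that median, and CD74 at -0.99. HLA-DMB stood at -3.25 and CIITA at -3.12, below it. In OCI-LY3 HLA-DRA stood at 0.15, CD74 at -0.52, CIITA at -0.51 and HLA-DMB at -2.59. With ribosomal protein scaling the median of all tested genes at 6 h was -1.22 in VAL and -1.13 in OCI-LY3. In VAL HLA-DRA (-0.30) and CD74 (-0.19) lay above it, and HLA-DMB (-2.465) and CIITA (-2.16) lay below it.

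**Figure D5:**
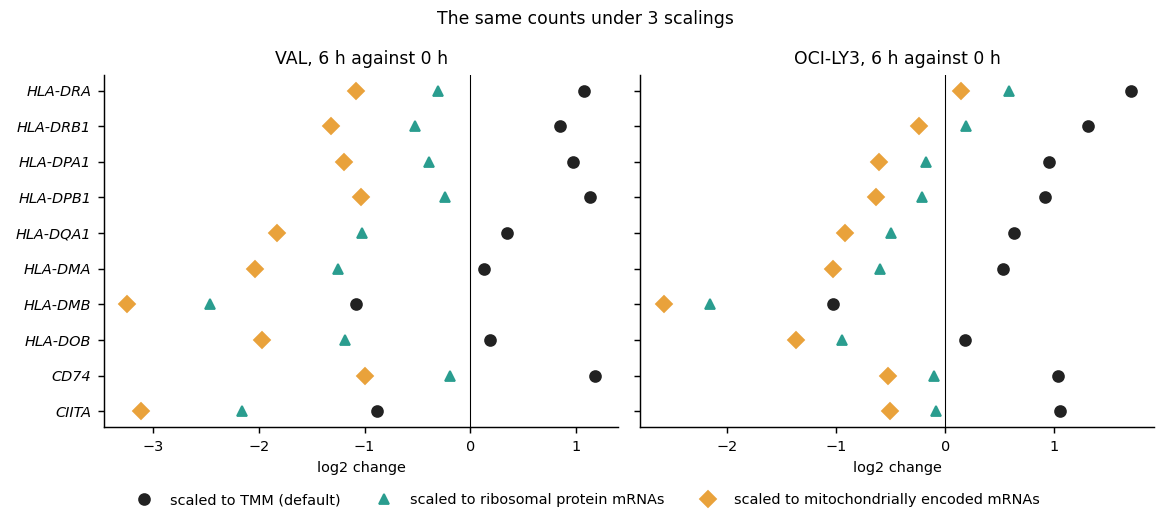
Log2 change at 6 h against 0 h of each member in VAL and OCI-LY3 when the same counts are scaled by TMM, to 77 ribosomal protein mRNAs or to 13 mitochondrially encoded mRNAs. In VAL all 10 members lie below 0 with either reference set; in OCI-LY3 HLA-DRA lies above 0 with both (0.58 and 0.15) and HLA-DRB1 with ribosomal protein scaling only (0.19).

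Shares of all counts amount to scaling by library depth alone, so they depend on every other mRNA. Ribosomal protein mRNAs held 11.5% of counts in both untreated VAL libraries and 19.4% and 22.9% at 6 h. The 9 members other than CIITA held 0.551% and 0.542% of counts in untreated VAL, 0.671% and 0.723% at 3 h and 0.789% and 0.845% at 6 h. The OCI-LY3 libraries gave 0.109% and 0.111%, then 0.147% and 0.146%, then 0.169% and 0.174%. CD74 alone made up most of this, at 0.333% and 0.325% in untreated VAL and 0.103% and 0.105% in untreated OCI-LY3. The 5 chains held 0.191% and 0.190% in untreated VAL but 0.00254% and 0.00265% in untreated OCI-LY3.

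Genes with the most similar course were sought by Pearson correlation of log2 CPM over the 12 libraries after each line's mean was taken out, a description that shares libraries, scaling and treatment. For CD74 these were MDH2, CALM3, AKR1B1, RNPEP and AP2M1, each at 0.999 among 7895 candidates. For HLA-DRA they were TSPYL2 (0.965), LAMP1 (0.96), CHMP5, TMEM107 and SMARCE1 (0.955). For CIITA the nearest were CTSS (0.831), NQO2 (0.777), ITGB7 (0.76), CREG1 (0.722) and CEP295 (0.721). No candidate thus followed CIITA as closely as several followed CD74. The VAL replicates of CIITA differed by 0.66 at 3 h and 1.16 at 6 h on the log2 scale. The part of this in its lower correlations was not tested.

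Positions are from GENCODE 29 on GRCh38. The 8 HLA members lie in the class II region of chromosome 6, from HLA-DRA (32439842 to 32445046, plus strand) to HLA-DPB1 (33075926 to 33087201, plus strand). CD74 lies on chromosome 5 (150401637 to 150412929, minus strand) and CIITA on chromosome 16 (10866222 to 10943021, plus strand). HLA genes are highly polymorphic and some loci are near copies, so reads of a line's own alleles may be lost or shared. Summing HLA-DRB1 with HLA-DRB5 and HLA-DRB6, and HLA-DQA1 with HLA-DQA2, turned no sign. The library kit kept no strand, so reads of overlapping genes such as HLA-DPA1 and HLA-DPB1 cannot be told apart in the shared stretch. No label tells whether the 2 libraries of a group came from separate cultures. The p-values therefore reflect the spread between libraries, which may be technical. This spread was shared by all 6 groups in the fit, although chi-square over its degrees of freedom ran from 1.66 (VAL 0 h) to 63.7 (VAL 3 h). The p of a comparison can thus reflect the spread of groups outside it. With each line fitted alone, which also moves the scaling, members higher at 3 h went from 6 to 3 in VAL. In OCI-LY3 they went from 4 to 7.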

How the data were processed

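The authors deposited a table of raw counts per gene and library and a table of normalized values in log2. Per the labels' protocols poly(A)+ RNA went through an unstranded kit. Per the submitters' processing notes GRCh38 and DESeq2 were used; the aligner and read counter used were not given in the sources used here. From the deposited counts genes passing edgeR's filterByExpr were kept (16374), scaled by TMM and fitted over all 12 libraries as 6 group means by edgeR's two-sided quasi-likelihood test with Benjamini-Hochberg adjustment within a comparison (threshold 0.05, 6 residual degrees of freedom). Values after ± are standard errors from this fit. Steps were tested on simulated data. Depth was 23175082 to 39715536 counts, and precision is limited by counts under 200 for the DR genes in OCI-LY3. Members and lists were chosen with earlier results of these data known. All members are named; from each list up to 4 genes of smallest adjusted p and genes against its majority are named, while those named at 0 h, GSTP1, CPNE3 and HSPB1 were chosen after their values were seen. Genes most alike are the 5 with the highest correlation among protein-coding genes of at least 5 CPM in both lines. Of 116 listed names 4 were not found. Software was R 4.3.3, edgeR 4.0.16, limma 3.58.1 and DESeq2 1.42.0.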

Additional observations from a re-analysis of the deposited data

Results flagged for a closer look

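The change of CIITA at 6 h differed between the lines by 1.93 ± 0.418 on the log2 scale (adjusted p = 0.00735, edgeR's quasi-likelihood test). CIITA was lower in 2 of 2 VAL libraries and higher in 2 of 2 OCI-LY3 libraries than in the untreated cells of the line. Beside it, the 2 treated VAL libraries differed by 1.16 for CIITA and by a median of 0.22 for other genes over 50 kb, and the part of this in the difference was not tested. Without VAL 6 h replicate 1 the difference was 2.64, and without replicate 2 it was 1.47.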

How the results depend on the processing

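Where a member was called in either of the 2 fits compared, its sign turned 72 times, each time with another scaling and never at 0 h. Among values called in neither fit the sign turned 166 times, 68 of them on leaving out a library. The values that follow are those with a call. In VAL at 3 h mitochondrial scaling gave -0.72 for HLA-DRA, -0.82 for HLA-DRB1, -0.71 for HLA-DPA1, -0.65 for HLA-DPB1, -1.03 for HLA-DQA1, -1.26 for HLA-DMA, -1.11 for HLA-DOB and -0.59 for CD74. In VAL at 6 h mitochondrial scaling gave -1.09 for HLA-DRA, -1.32 for HLA-DRB1, -1.20 for HLA-DPA1, -1.03 for HLA-DPB1, -1.83 for HLA-DQA1, -2.04 for HLA-DMA, -1.97 for HLA-DOB and -0.99 for CD74. In VAL from 3 h to 6 h mitochondrial scaling gave -0.78 for HLA-DMA and -0.40 for CD74. In OCI-LY3 at 3 h mitochondrial scaling gave -0.35 for HLA-DRA, -0.85 for HLA-DRB1, -0.57 for HLA-DPA1, -0.43 for HLA-DPB1, -0.91 for HLA-DQA1, -0.72 for HLA-DMA, -0.88 for HLA-DOB, -0.50 for CD74 and -0.92 for CIITA. In OCI-LY3 at 6 h mitochondrial scaling gave -0.24 for HLA-DRB1, -0.61 for HLA-DPA1, -0.64 for HLA-DPB1, -0.92 for HLA-DQA1, -1.03 for HLA-DMA, -1.37 for HLA-DOB, -0.52 for CD74 and -0.51 for CIITA. In OCI-LY3 from 3 h to 6 h mitochondrial scaling gave -0.0399 for HLA-DPA1 and -0.0243 for CD74. In VAL at 3 h ribosomal protein scaling gave -0.22 for HLA-DRA, -0.30 for HLA-DRB1, -0.19 for HLA-DPA1, -0.14 for HLA-DPB1, -0.51 for HLA-DQA1, -0.76 for HLA-DMA, -0.64 for HLA-DOB and -0.0614 for CD74. In VAL at 6 h ribosomal protein scaling gave -0.30 for HLA-DRA, -0.52 for HLA-DRB1, -0.39 for HLA-DPA1, -0.24 for HLA-DPB1, -1.02 for HLA-DQA1, -1.25 for HLA-DMA, -1.18 for HLA-DOB and -0.19 for CD74. In VAL from 3 h to 6 h ribosomal protein scaling gave -0.50 for HLA-DMA and -0.13 for CD74. In OCI-LY3 at 3 h ribosomal protein scaling gave -0.12 for HLA-DPA1, -0.47 for HLA-DQA1, -0.28 for HLA-DMA and -0.0641 for CD74. In OCI-LY3 at 6 h ribosomal protein scaling gave -0.18 for HLA-DPA1, -0.21 for HLA-DPB1, -0.50 for HLA-DQA1, -0.60 for HLA-DMA, -0.95 for HLA-DOB, -0.10 for CD74 and -0.0823 for CIITA. In OCI-LY3 from 3 h to 6 h ribosomal protein scaling gave -0.0539 for HLA-DPA1, -0.32 for HLA-DMA and -0.0343 for CD74. In VAL at 3 h library size alone gave -0.00467 for HLA-DQA1. In VAL at 6 h library size alone gave -0.15 for HLA-DQA1 and -0.37 for HLA-DMA.

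Counts of members called moved as follows. With these scalings the median of all tested genes fell too. At 6 h it was -2.06 in VAL and -1.55 in OCI-LY3 with mitochondrial scaling. With ribosomal protein scaling it was -1.22 and -1.13. The 6 higher in VAL at 3 h was 3 with library size alone and each line alone and 0 with mitochondrial scaling and ribosomal protein scaling and ran from 3 to 6 without single libraries. The 1 lower in VAL at 3 h was 2 with library size alone, no low-count filter, genes averaging 5 CPM or more, the DESeq2 Wald test, limma-voom, the replicate block, both treated VAL libraries numbered 1 left out and those numbered 2 left out, 9 with mitochondrial scaling and 5 with ribosomal protein scaling and ran from 1 to 2 without single libraries. The 6 higher in VAL at 6 h was 0 with mitochondrial scaling and ribosomal protein scaling and ran from 5 to 6 without single libraries. The 2 lower in VAL at 6 h was 10 with mitochondrial scaling, 7 with ribosomal protein scaling and 1 with each line alone and ran from 1 to 2 without single libraries. The 1 higher in VAL from 3 h to 6 h was 2 with DESeq2 size factors, 0 with mitochondrial scaling, ribosomal protein scaling, limma-voom and each line alone, 3 with no low-count filter, the DESeq2 Wald test and the replicate block, 4 with genes averaging 5 CPM or more and 5 with both treated VAL libraries numbered 1 left out and those numbered 2 left out and ran from 0 to 3 without single libraries. The 0 lower in VAL from 3 h to 6 h was 5 with mitochondrial scaling, 3 with ribosomal protein scaling and 2 with both treated VAL libraries numbered 1 left out and ran from 0 to 1 without single libraries. The 4 higher in OCI-LY3 at 3 h was 0 with mitochondrial scaling and ribosomal protein scaling, 7 with each line alone and 8 with both treated VAL libraries numbered 1 left out and those numbered 2 left out and ran from 2 to 5 without single libraries. The 1 lower in OCI-LY3 at 3 h was 0 with DESeq2 size factors, genes averaging 5 CPM or more, the DESeq2 Wald test and the deposited log2 table, 6 with mitochondrial scaling and 3 with ribosomal protein scaling and ran from 0 to 1 without single libraries. The 8 higher in OCI-LY3 at 6 h was 0 with mitochondrial scaling and 1 with ribosomal protein scaling and ran from 7 to 8 without single libraries. The 1 lower in OCI-LY3 at 6 h was 4 with mitochondrial scaling and ribosomal protein scaling. The 5 higher in OCI-LY3 from 3 h to 6 h was 3 with library size alone, 0 with mitochondrial scaling and 1 with ribosomal protein scaling and ran from 0 to 6 without single libraries. The 0 lower in OCI-LY3 from 3 h to 6 h was 1 with library size alone, both treated VAL libraries numbered 1 left out and those numbered 2 left out and 2 with ribosomal protein scaling. The 1 higher in the lines at 0 h was 2 with no low-count filter, limma-voom, both treated VAL libraries numbered 1 left out and those numbered 2 left out and ran from 1 to 2 without single libraries. The 0 higher in the 3 h difference between lines was 1 with no low-count filter, limma-voom, the replicate block and both treated VAL libraries numbered 1 left out and 3 with those numbered 2 left out and ran from 0 to 1 without single libraries. The 0 lower in the 3 h difference between lines was 1 with both treated VAL libraries numbered 1 left out. The 1 higher in the 6 h difference between lines was 2 with library size alone, mitochondrial scaling, ribosomal protein scaling and no low-count filter and 5 with those numbered 2 left out and ran from 1 to 2 without single libraries. The 0 lower in the 6 h difference between lines was 1 with both treated VAL libraries numbered 1 left out.

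Over all genes, the 8952 calls in VAL at 3 h became 5897 with genes averaging 5 CPM or more. The 10829 calls in VAL at 6 h became 6893 with genes averaging 5 CPM or more. The 3737 calls in VAL from 3 h to 6 h became 8028 with mitochondrial scaling, 5884 with ribosomal protein scaling, 1299 with limma-voom, 1282 with each line alone and 6008 with both treated VAL libraries numbered 1 left out. The 6900 calls in OCI-LY3 at 3 h became 11236 with mitochondrial scaling and 4411 to 7923 without single libraries. The 10075 calls in OCI-LY3 at 6 h became 6703 with genes averaging 5 CPM or more. The 4628 calls in OCI-LY3 from 3 h to 6 h became 7127 with limma-voom, 7821 with each line alone, 8289 with both treated VAL libraries numbered 1 left out and 8279 with those numbered 2 left out and 2614 to 5724 without single libraries. The 9212 calls in the lines at 0 h became 5303 with genes averaging 5 CPM or more. The 988 calls in the 3 h difference between lines became 428 with mitochondrial scaling, 2168 with no low-count filter, 1738 with the DESeq2 Wald test, 2376 with limma-voom, 2366 with the replicate block, 3709 with both treated VAL libraries numbered 1 left out and 6673 with those numbered 2 left out and 138 to 3742 without single libraries. The 4383 calls in the 6 h difference between lines became 8127 with those numbered 2 left out and 2484 to 5854 without single libraries. The cause of these moves was not tested, except that fewer genes are tested with a minimum of 5 CPM.

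Replicate numbers were not taken to pair the libraries, since not every pair of groups correlated above 0.1. Deviations of same-numbered libraries correlated at -0.0582, -0.0599 and 0.683 in VAL and at -0.0651, 0.0176 and 0.0773 in OCI-LY3. The value of 0.683 is that of VAL at 3 h and 6 h, whose same-numbered libraries did deviate together. With the replicate block 6 member calls were gained and 0 lost, with CIITA at -0.78 in VAL at 3 h (adjusted p = 0.00433) and the 6 h difference of CIITA at 2.04. Settings that leave out both treated VAL libraries of a number were chosen after seeing the data. Sums over near-identical loci left 17 results on their side of the threshold and added a call of HLA-DQA1 in OCI-LY3 from 3 h to 6 h (0.42, adjusted p = 0.0378). Depth limits the DR genes of OCI-LY3 most, at 42 to 170 counts a library.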
